A study of Mus musculus with 6 samples.

Results

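The cytosolic ribosomal protein genes encode the protein part of the ribosome that translates nuclear-encoded mRNA. Members were taken by gene symbol alone: symbols of the Rpl or Rps series, together with Rpsa, Rplp0, Rplp1, Rplp2 and Fau, with pseudogenes named -ps and the Rps6k kinases left out. The rule found 85 of the 11815 genes in the deposited table, with 354 of its 23115 transcripts. Of the 85 genes, 47 belong to the large subunit, 35 to the small subunit and 3 to the P stalk. Protein coding is the annotated type of 82 of them, and the other 3, Rps3a2, Rps4l and Rpl6l, are not annotated as coding in GENCODE M21. The annotation holds 84 protein-coding genes that match the rule, and 2 of these, Rpl10l and Rpl3l, were not analysed here.

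RNA was sequenced in bulk from osteal macrophages (Omacs), macrophages that line bone surfaces. The cells came from the femurs and vertebrae of female BALB/c mice that were ovariectomized (OVX) or sham operated at 10 weeks of age, and were collected 4 weeks after surgery. Loss of the ovaries deprives the animal of ovarian estrogen, and the operation models the postmenopausal state. Cells were digested from bone freed of periosteum and flushed of marrow, then sorted with antibodies to CD11b, F4/80 and CD68. There were 3 OVX and 3 sham libraries. The methods give 20 mice for each condition and do not say which animals went into which library, so p-values measure the spread between libraries, which may be technical.

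A ribosome joins a small subunit, which reads the mRNA, to a large subunit, which forms the peptide bond, and most of its proteins are present once per ribosome. The mRNAs of these genes are known for a run of pyrimidines at the 5′ end, the 5′ TOP element, through which growth signals such as mTORC1 adjust their translation together. Several ribosomal proteins also bind Mdm2 and thereby stabilise p53 when ribosome assembly is disturbed. In macrophages, as in other cells, these mRNAs are among the most abundant.

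Values are TPM, the relative abundance of a transcript after correction for its length, summed per gene. Scaled TPM are the same values divided by one factor per library, a trimmed mean of log ratios (TMM), which sets the bulk of genes level. The factors were 0.998, 1.01 and 0.841 for OVX replicates 1, 2 and 3, and 1.04, 0.994 and 1.14 for sham replicates 1, 2 and 3. The read number behind each value is not in the table, so its counting error is unknown. OVX 3 stood apart from the other libraries: listed transcripts held 66.3% of its TPM scale, against 82.97% in OVX 1, 81.2% in OVX 2 and 80.5 to 82.7% in the sham libraries. Results are therefore given with and without OVX 3.

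The sort's markers were low in part. Cd68 averaged 40.2 scaled TPM in OVX and 34.6 in sham, and Itgam, which encodes CD11b, 21.9 in OVX and 11.9 in sham. Adgre1, which encodes F4/80, averaged 0.675 in OVX and 0.878 in sham, and Csf1r was listed at 0. The 12 listed genes of a 23-gene neutrophil list summed to between 111100 and 141300 TPM in OVX and between 79490 and 88800 TPM in sham, mostly S100a8 and S100a9, while Stfa1 was listed at 0 in both. The 13 mitochondrially encoded genes summed to 69100, 67210 and 45300 TPM in OVX and to 84450, 81750 and 85380 TPM in sham. Stromal and fibroblast genes summed to 14370, 13890 and 8614 TPM in OVX and to 15310, 15380 and 17090 TPM in sham. For osteoblast and osteocyte genes the sums were 10380, 9745 and 4980 TPM in OVX and 10530, 9839 and 11550 TPM in sham. The macrophage and sort list summed to 2079, 1991 and 1339 TPM in OVX and to 1627, 1591 and 1857 TPM in sham. The neutrophil and mitochondrial lists hold a large share of the TPM. What part any of these lists has in the ribosomal protein values was not tested. In bulk RNA, fewer cells of a type and less RNA per cell cannot be told apart.

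The ribosomal protein genes lay far above the typical gene. The median level of the 84 tested members was 606 scaled TPM, against 6.34 over all 8184 genes with a mean of at least 1, the level at which a gene was tested. Of the members, 80 had a mean of at least 100 and 19 a mean of at least 1000. Together they summed to 55220, 55590 and 63450 TPM in OVX replicates 1, 2 and 3, which was 6.66, 6.84 and 9.57% of the listed TPM. In sham replicates 1, 2 and 3 they summed to 58170, 63680 and 59390 TPM, or 7.18, 7.91 and 7.18%. OVX 1 and OVX 2 were thus the lowest of the 6 libraries, while OVX 3 and sham 2 were the highest.

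**Figure D1:**
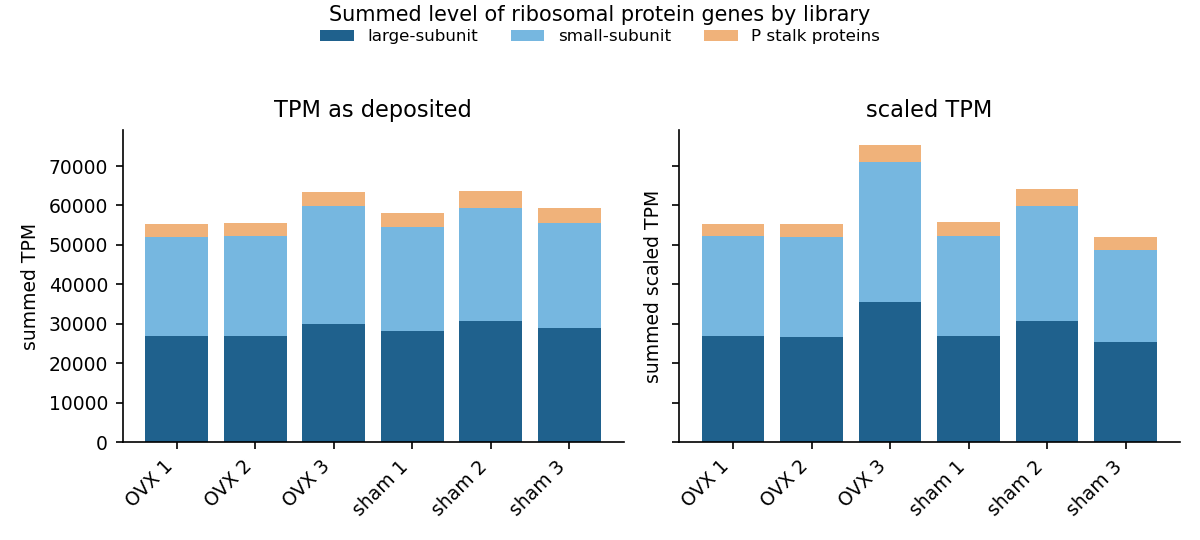
Stacked bars give the summed level of the large-subunit, small-subunit and P stalk genes in each library, as deposited TPM on the left and scaled TPM on the right. The scaled sum of OVX 3 is 75410, above the 5 other libraries, which lie between 52070 and 64060.

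Averaged over libraries, the deposited sum was 58090 ± 4646 TPM in OVX and 60410 ± 2893 TPM in sham (SD, n = 3 each), a difference smaller than the spread. On the scaled values the order turned: 62000 ± 11610 in OVX and 57280 ± 6146 in sham, a ratio of 1.08. Without OVX 3 the ratio was 0.965. With all 6 libraries the direction of the group difference in the sum therefore rested on the scaling. On scaled values it also rested on 1 library, OVX 3. Without OVX 3 the deposited sum had a ratio of 0.917, in a setting chosen after seeing the data, so the sum was then lower in OVX on both scales.

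The most abundant member was Rps25, a small-subunit protein of the head region, with 2987, 2981 and 4459 TPM in OVX and 3161, 3353 and 3006 TPM in sham. Rpl41, which encodes the smallest ribosomal protein, followed with 3112, 3205 and 2689 TPM in OVX and 3295, 3748 and 3497 TPM in sham. Both groups overlapped for Rps25, whereas all OVX values of Rpl41 lay below all sham values as deposited and overlapped them after scaling. Ranks 3 to 5 were held by the P stalk genes Rplp2 and Rplp1 and by Rpl38. These 5 genes carried 19.2% of the summed level of all members.

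At the other end stood mostly variants and copies. Rpl6l, a processed pseudogene, had 0.32, 1.96 and 4.06 TPM in OVX and 1.59, 1.24 and 1.10 TPM in sham. Rpl39l, a variant of Rpl39 best known from testis, had 0.32, 0.32 and 0 TPM in OVX and 1.07, 0 and 0.29 TPM in sham, and was the 1 member below the level for testing. The lowest member that was protein coding and tested was Rpl29, at 14.7, 21.3 and 22.6 TPM in OVX and 24.4, 21.3 and 26.5 TPM in sham. Its mean scaled level was 155-fold below that of Rps25. Rpl26 had only 129, 131 and 167 TPM in OVX and 137, 164 and 137 TPM in sham, but the processed pseudogene Gm15772, 99.5% identical to its mRNA over 438 bases, was listed with 706, 770 and 987 TPM in OVX and 888, 945 and 763 TPM in sham. The sources used here do not say how reads matching both were assigned, so levels of Rpl26 are uncertain.

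**Figure D2:**
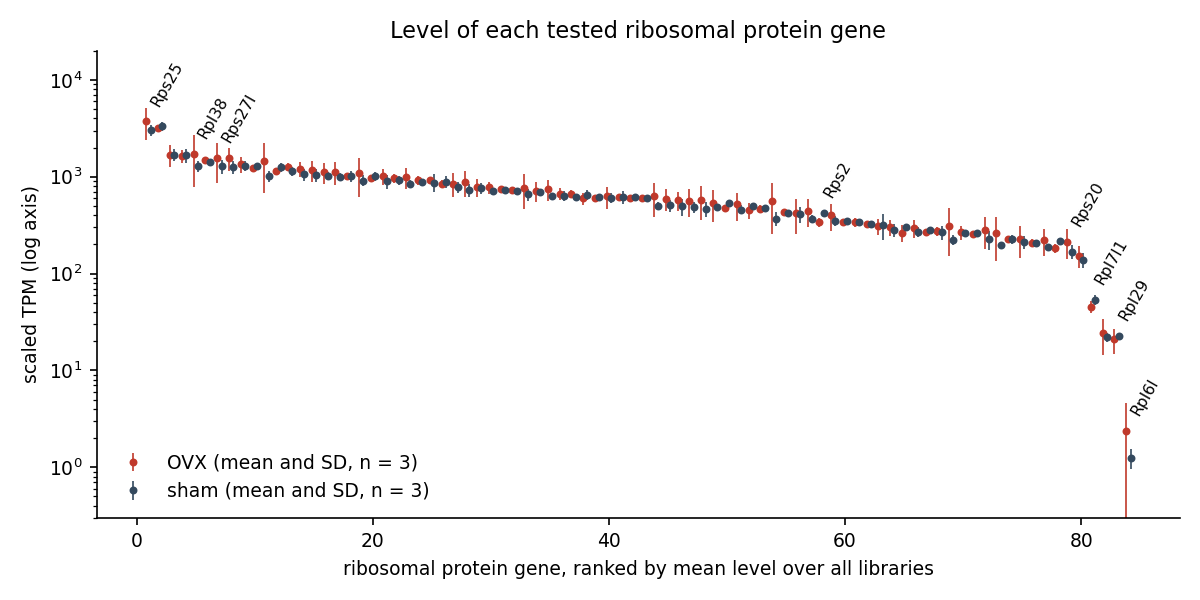
Mean scaled TPM (log axis) of each tested member in OVX and sham, with SD over 3 libraries, ranked by the mean over all libraries. 80 of the 84 members have a mean of at least 100, the spread is wider in OVX, and a few low members fall off at the right.

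Such near-identical copies were common. The table listed 96 transcripts outside the rule that matched a member's mRNA at 90% identity or more over at least 200 bases, for 64 members. They summed to 4103, 4211 and 4836 TPM in OVX and to 4903, 4797 and 4896 TPM in sham. For 11 members the copies held over 10% of the member's own level. The largest of these were Rpl26, Rpl35a, Rps2 and Rplp0, and 5 copies of Rpl35a had the same value in every library.

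No ribosomal protein gene differed between OVX and sham past the threshold. In the limma test across all genes, 0 of 84 members were higher and 0 were lower in OVX at an adjusted p of 0.05, against 0.0122% and 0% of all 8184 genes tested, which was 1 gene higher and none lower. At an unadjusted p of 0.05, limma gave 0 members higher and 1 lower, beside 3.46% and 3.42% of all genes. Of the fold changes, 59 were above 0 and 25 below, against 48.4% above 0 and 51.6% below over all genes. Their median was 0.07 on the log2 scale and that of all genes -0.01.

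The intervals of the fold change hold for this scaling and measure the spread between libraries, which may be technical. The 95% interval of the fold change lay within 2-fold in either direction for 78 of the 84 members, and within 1.5-fold for 45. Without OVX 3 these numbers were 83 and 79. All 3 OVX libraries lay below all 3 sham libraries for 3 members (7.8% of all genes), and above them for 0 members (7.42% of all genes).

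Those 3 members were Rps2, Rpl3 and Rpl8. Rps2, a small-subunit protein near the mRNA entry site (gene at chr17:24718116-24721929, GRCm38, plus strand), had 361, 366 and 251 TPM in OVX and 457, 406 and 492 TPM in sham. Every OVX library was below every sham library, as deposited and after scaling. The fold change was -0.32 ± 0.14 (log2, SE, n = 3 each), with a 95% interval of -0.64 to -0.0029, an unadjusted p of 0.048 and an adjusted p of 0.706 by limma. Without OVX 3 it was -0.23, with an adjusted p of 0.422. Rps2-ps10, a listed transcript 99.4% identical to Rps2 over 934 bases, had 651, 472 and 224 TPM in OVX and 539, 497 and 666 TPM in sham. Rps2 and its 2 copies together had 1012, 839 and 475 TPM in OVX and 997, 903 and 1158 TPM in sham, so that the groups overlapped and Rps2 is uncertain as a single gene.

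Rpl3, a large-subunit protein close to the peptidyl transferase centre (chr15:80077791-80091868, minus strand), had 198, 193 and 135 TPM in OVX and 229, 224 and 231 TPM in sham. The sham libraries lay close together and all OVX libraries below them. The fold change was -0.24 ± 0.14, with an adjusted p of 0.734 by limma, and -0.14 without OVX 3. Rpl8, the uL2 protein of the large subunit (chr15:76904078-76906314, plus strand), had 492, 489 and 377 TPM in OVX and 538, 563 and 582 TPM in sham, again without overlap, with a fold change of -0.16 ± 0.13 and an adjusted p of 0.781 by limma, and of -0.12 without OVX 3.

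The other members with the smallest p among those below 0 were Rpl7l1, Rplp0, Rpl37a, Rpsa and Rpl18. Rpl7l1, which has a role in ribosome assembly, had a fold change of -0.24 ± 0.16 and Rplp0, the base of the P stalk, -0.21 ± 0.17. Rpl37a had -0.13 ± 0.14, Rpsa, which is also known as the laminin receptor, -0.14 ± 0.17, and Rpl18 -0.12 ± 0.16. Adjusted p-values by limma were 0.76 to 0.854. Much of the size came from OVX 3: Rpsa had 526, 480 and 303 TPM in OVX and 506, 512 and 551 TPM in sham, and its fold change was 0.02 without OVX 3. Rplp0 had 294, 297 and 172 TPM in OVX and 316, 293 and 352 TPM in sham, and its fold change was -0.03 without that library. Rpl7l1 had 52.2, 44.1 and 33.8 TPM in OVX and 59.3, 46.5 and 65.7 TPM in sham. In all of these OVX 3 was the lowest library. The same held for Rpl37a, at 1158, 1233 and 900 TPM in OVX and 1270, 1409 and 1323 TPM in sham, and for Rpl18, at 687, 598 and 437 TPM in OVX and 708, 709 and 641 TPM in sham.

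Among members above 0, the smallest p belonged to Rpl37, a large-subunit protein with a zinc finger, at 371, 398 and 764 TPM in OVX and 369, 431 and 363 TPM in sham. OVX 1 and OVX 2 sat within the sham range and OVX 3 alone was high. The fold change was 0.49 ± 0.34 with an adjusted p of 0.774 by limma, and 0.07 without OVX 3. Rpl35, near the exit of the peptide tunnel, had 973, 1053 and 1992 TPM in OVX and 998, 1164 and 1036 TPM in sham, with a fold change of 0.42 ± 0.34, and 0.01 without OVX 3. Others named by the same ranking were Rps27, Rps20, Rps25, Rpl22 and Rps23, with fold changes of 0.23 to 0.31 and adjusted p-values by limma of 0.781 to 0.807. Without OVX 3 the same 5 lay between -0.01 and 0.07. Rps20, which sits in the head of the small subunit, had 185, 161 and 249 TPM in OVX and 145, 194 and 195 TPM in sham. Rps23, a protein of the decoding centre, had 731, 735 and 996 TPM in OVX and 726, 855 and 742 TPM in sham. OVX 3 was the highest library for both.

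**Figure D3:**
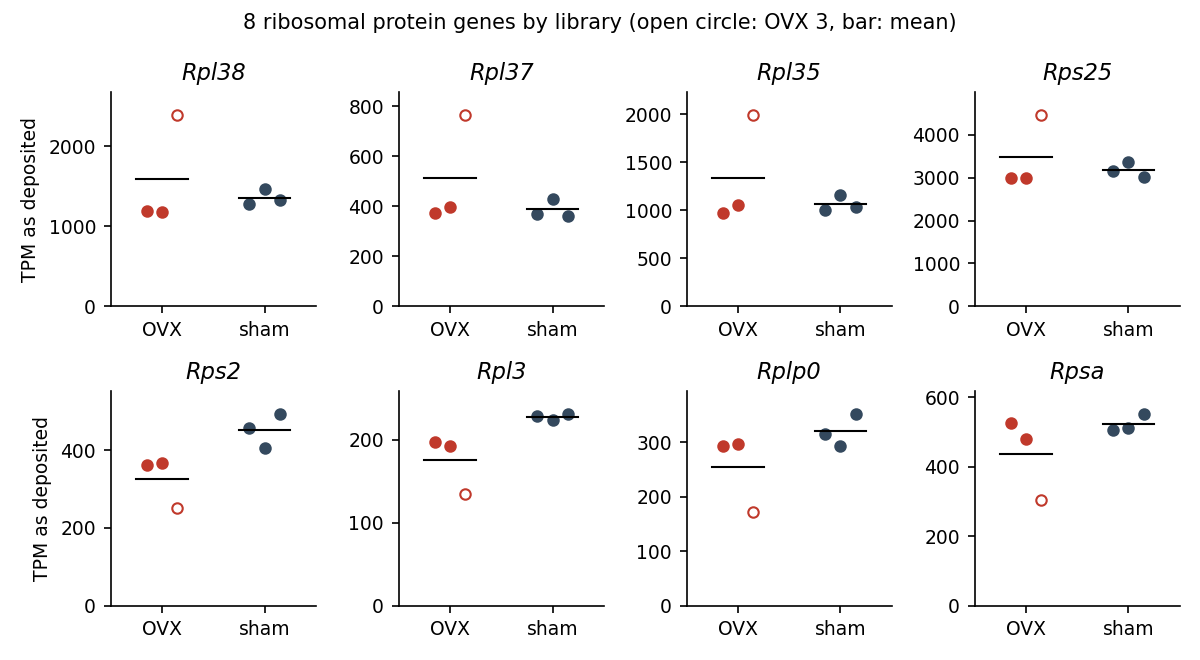
Deposited TPM of 8 members in each library, with the group mean as a bar and OVX 3 as an open circle. In the upper row (Rpl38, Rpl37, Rpl35, Rps25) OVX 3 lies above all other libraries, and in the lower row (Rps2, Rpl3, Rplp0, Rpsa) below all of them.

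The fold changes of the members as a set turned with OVX 3. Without it 27 members were above 0 and 57 below, against 49% and 51% of all genes, with a median of -0.03 beside -0.01 for all genes. By limma 0 members then passed the adjusted threshold, while 7 of 8263 genes were higher (0.0847%) and 3 lower (0.0363%). On the TPM as deposited, with all 6 libraries, 25 members were above 0 and 59 below, with a median of -0.10, but the median of all genes was then -0.15, with 30.1% of them above 0 and 69.9% below. Members without overlap on that scale numbered 0 higher and 19 lower, against 3.57% and 13.1% of all genes. With deposited TPM and OVX 3 left out, a choice made after seeing the data, 2 members were above 0 and 82 below, against 37.1% and 62.9% of all genes, with a median of -0.11 beside -0.07 for all genes. Of these, 42 were lower without overlap (18.9% of all genes), and for 15 limma gave an unadjusted p of at most 0.05 (6.86% of all genes lower). At the adjusted threshold 0 members were higher (0.0967% of all genes) and 0 lower (0.0726%).

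**Figure D4:**
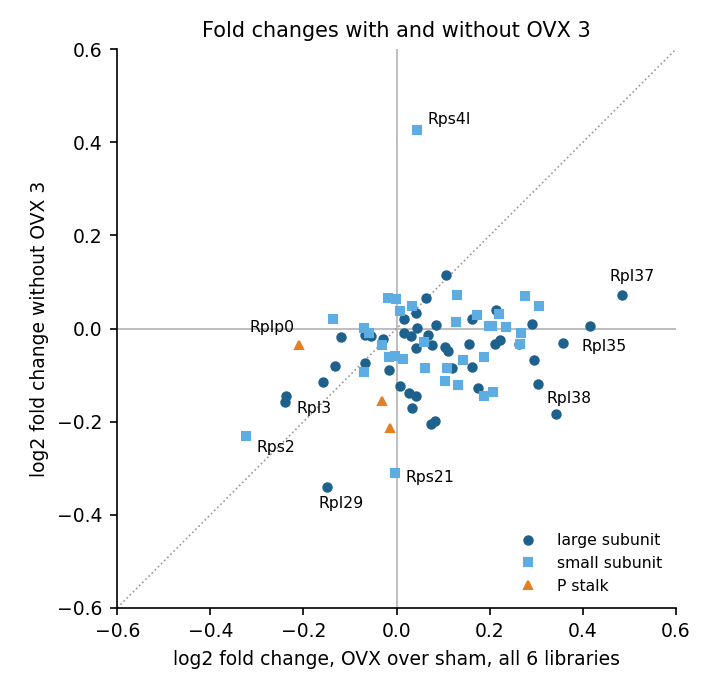
Log2 fold change (OVX over sham, scaled TPM) of each tested member with all 6 libraries (horizontal axis) and without OVX 3 (vertical axis). Points right of 0 scatter around 0 on the vertical axis, and Rps2 and Rpl3 stay below 0 on both.

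By structure, most members of either subunit were above 0 with all 6 libraries and fewer without OVX 3. Of 46 tested large-subunit members 35 were above 0 and 11 below, with a median of 0.07, and of 35 small-subunit members 24 were above 0 and 11 below, with a median of 0.10. Without OVX 3, 11 of the 46 and 16 of the 35 were above 0, with medians of -0.03 and -0.01. Neither subunit had a member past the adjusted threshold, and a difference between the subunits was not tested. The 3 P stalk genes, whose proteins recruit the elongation factors, were all below 0. Rplp1 had 1481, 1484 and 1612 TPM in OVX and 1638, 1964 and 1651 TPM in sham, and Rplp2 1399, 1479 and 1830 TPM in OVX and 1642, 1935 and 1718 TPM in sham. Rplp1 was lower in every OVX library as deposited, and the scaled values overlapped for both, with limma's adjusted p at 0.96 for Rplp1 and 0.984 for Rplp2. The stalk median was -0.03 with all 6 libraries and -0.16 without OVX 3. Fold changes were then -0.16 for Rplp1 and -0.21 for Rplp2, with adjusted p-values by limma of 0.777 and 0.631.

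Ribosomal proteins that are known to act on p53 showed no difference past the threshold either: of 10, 9 were above 0, with a median of 0.15, and without OVX 3 the median was -0.03. Rpl5 and Rpl11 bind Mdm2 together with 5S rRNA. Rpl5 had 180, 185 and 254 TPM in OVX and 212, 171 and 211 TPM in sham, with a fold change of 0.21 ± 0.22, and Rpl11 had 224, 224 and 198 TPM in OVX and 249, 242 and 225 TPM in sham, with 0.02 ± 0.14. Without OVX 3 the fold changes were -0.03 for Rpl5 and -0.01 for Rpl11. Both groups overlapped after scaling for each gene.

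Rps27l, a p53 target that encodes a paralog of Rps27, had 1140, 1175 and 1989 TPM in OVX and 1327, 1487 and 1229 TPM in sham. As deposited, OVX 1 and OVX 2 were below all sham libraries and OVX 3 above them. After scaling, OVX 1 and OVX 2 lay above sham 3, and OVX 3 was still the highest library. The fold change of Rps27l was 0.21 ± 0.30, with an adjusted p of 0.86 by limma, and -0.14 without OVX 3. Rps27 itself had 1357, 1299 and 1710 TPM in OVX and 1158, 1480 and 1389 TPM in sham.

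The other p53-linked members did not pass the threshold either. Rpl23 had 583, 610 and 943 TPM in OVX and 713, 732 and 624 TPM in sham, and Rps7 456, 444 and 702 TPM in OVX and 480, 541 and 441 TPM in sham. In both, OVX 3 was the highest library. Rps19, mutated in Diamond-Blackfan anemia in humans, had 1126, 1289 and 1141 TPM in OVX and 1161, 1277 and 1197 TPM in sham, and Rps14 1238, 1185 and 1377 TPM in OVX and 1326, 1443 and 1303 TPM in sham. Rps3, which also takes part in DNA repair, had 231, 207 and 160 TPM in OVX and 213, 212 and 238 TPM in sham. The groups overlapped in all of these.

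Of the ribosomal proteins made as fusions with ubiquitin or a ubiquitin-like protein, Rps27a had 976, 939 and 1202 TPM in OVX and 1043, 1120 and 1057 TPM in sham, and Fau 1075, 1076 and 1217 TPM in OVX and 1023, 1227 and 1098 TPM in sham. The groups overlapped for both.

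Among paralogs, Rpl22l1, which can take the place of Rpl22, had 274, 173 and 412 TPM in OVX and 227, 200 and 287 TPM in sham, with a fold change of 0.36 ± 0.35. Rpl22 had 239, 209 and 337 TPM in OVX and 222, 280 and 207 TPM in sham. OVX 3 was again the highest library for both. Rps4l had 31.4, 28.5 and 10.9 TPM in OVX and 20.4, 23.8 and 25.9 TPM in sham, with a fold change of 0.04 ± 0.32 that became 0.43 without OVX 3. Rps27rt, a relative of Rps27 outside the rule, had 38.1, 43.4 and 61.2 TPM in OVX and 27.9, 33.4 and 19.7 TPM in sham. The groups did not overlap, and 7.42% of all genes were likewise higher in OVX without overlap. The fold change of Rps27rt was 0.95 ± 0.31, with an adjusted p of 0.673 by limma. Its transcript is 100% identical to Rps27 over 341 of its 374 bases and had 2.66% of the level of Rps27. The level of Rps27rt is therefore uncertain too.

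Among the members, how far OVX 3 lay from the other OVX libraries went with the length of the transcript. On scaled values OVX 3 was above both OVX 1 and OVX 2 for 61 members and below both for 17, against 40.0% and 43.6% of all tested genes. It was the highest of the 6 libraries for 53 members and the lowest for 13. Members of up to 500 bases (n = 14) were higher in OVX 3 than in the mean of OVX 1 and OVX 2 by a median of 0.62 on the log2 scale, those of over 500 and up to 700 bases (n = 33) by 0.56 and those of up to 1000 bases (n = 28) by 0.24. The 5 members of over 1000 and up to 1500 bases had a median of -0.28, and the 4 longest, of up to 2500 bases, -0.16.

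Of 75 members of up to 1000 bases 61 lay above 0 and 14 below, Rpl18 and Rps12 among the 14, and of the 9 longer ones 2 lay above and 7 below.

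Other genes had medians of 0.82, 0.61, 0.29, -0.19 and -0.29 in the same 5 length ranges, above 0 in the 3 shorter ranges and below it in the 2 longer, like the members. In the 3702 other genes of over 2500 bases, a length no member reached, the median was 0.05, and over all 8093 other genes the correlation with log2 length was -0.02. Over the 84 members, the deviation of OVX 3 and log2 length had a Pearson correlation of -0.41, given as a description of 1 library, since all points share it. For sham 2, set against the other sham libraries, it was -0.60, and for the other 4 libraries 0.34 to 0.44. The deviations of the 3 libraries of a group are tied to each other, so these 4 values are not separate observations. Transcript length thus moved with the level of members in libraries of both groups, and its part in the group comparison was not tested.

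**Figure D5:**
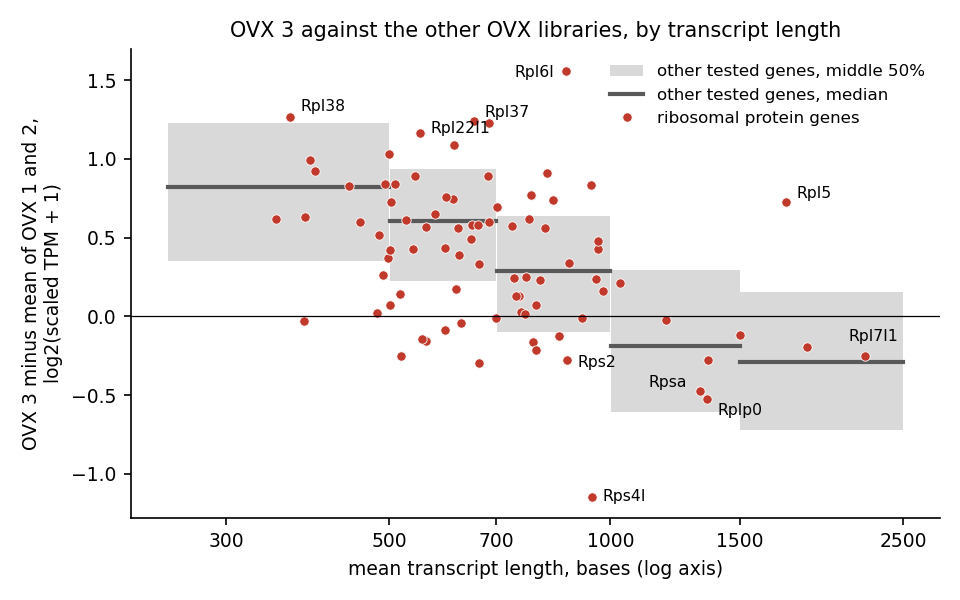
Difference of OVX 3 from the mean of OVX 1 and OVX 2 (log2 of scaled TPM + 1) against mean transcript length in bases (log axis), for each tested member, with the median and middle 50% of other tested genes in 5 length ranges. Of the 75 members of up to 1000 bases 61 lie above 0, and 7 of the 9 longer ones below it, while Rpl5 lies above and Rps4l below the genes around them.

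Rpl38, chosen after its values were seen, is an example of a short member: it had 1185, 1181 and 2389 TPM in OVX and 1279, 1472 and 1325 TPM in sham, and OVX 3 was 2.41-fold above the mean of OVX 1 and OVX 2 after scaling. A list of 51 short nuclear genes of oxidative phosphorylation, set beside the members as another group of short and abundant mRNAs, had 48 genes above 0 and 3 below with a median of 0.22, and a median of -0.05 without OVX 3. In that library it was 0.84 above the others. Without OVX 3, 16 of the 51 were above 0. Most genes of both groups were thus above 0 with all 6 libraries, and fewer were without OVX 3. The member medians, 0.07 and -0.03, were near 0 either way.

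The spread between libraries was also unequal. The median coefficient of variation of members was 18.8% in OVX and 11.1% in sham, and that of the 628 other genes with a mean of at least 100 was 21.2% in OVX and 8.14% in sham. The kinds of transcript listed for members shifted in OVX 3 as well. Coding transcripts held 88.4, 87.8 and 84.4% of the members' TPM in OVX and 88.4, 87.9 and 88.4% in sham. Retained-intron transcripts held 5.12, 5.54 and 6.82% in OVX and 5.43, 5.50 and 5.33% in sham. OVX 3 had the lowest coding share and the highest intron-retaining share. For 14 members, among them Rps20, Rps16, Rpl12, Rps26, Rps23, Rpsa, Rpl23, Rpl37 and Rpl35, most of the TPM was listed for transcripts not annotated as coding, which their sums include.

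Most members matched to a start site had a run of pyrimidines near it. The RefSeq table of start sites (GRCm38.p6) matched 62 members. A run of at least 8 pyrimidines that begins with C, searched on the coding strand between 20 bases before and 50 bases after the start, was found for 48 of them (77.4%), against 22.0% of 6271 other tested protein-coding genes. It was found for 38 of 46 matched members that were higher in OVX 3 than in the other OVX libraries and for 10 of 15 that were lower. A run is a match of letters, not a mapped start, and need not begin at the 5′ end as a 5′ TOP element does. Where a gene had several starts, the one with the longest run was kept, for members and other genes alike. The windows below, 4 of members high in OVX 3 and 3 of members low in it, chosen after these values were seen, are shown so that the run can be compared, with the run in capitals and each read 5′ to 3′ on the gene's strand.
Rpl38 (chr11:114668569-114668598, plus): gaagcctcgttCTTTCCCCgttctcttcgg
Rpl37 (chr15:5116632-5116661, plus): gcgggggtgCTTTCTCTTCCggtctctttg
Rpl35 (chr2:39005115-39005144, minus): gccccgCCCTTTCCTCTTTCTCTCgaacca
Rps25 (chr9:44407686-44407715, plus): accgggcttCCTTTTTTTCCgacatcttag
Rps2 (chr17:24720093-24720112, plus): ttccgcggcgCCTCCCTCTT
Rpl18 (chr7:45718062-45718091, plus): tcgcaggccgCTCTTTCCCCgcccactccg
Rpl37a (chr1:72711275-72711304, plus): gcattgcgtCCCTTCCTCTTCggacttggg
The runs were 8, 11, 18 and 11 bases long in Rpl38, Rpl37, Rpl35 and Rps25, and 10, 10 and 12 bases in Rps2, Rpl18 and Rpl37a, and the run of Rps2 reached the end of the searched window. Relative to the start, they began at 1, 29, -7 and -19 in Rpl38, Rpl37, Rpl35 and Rps25. In Rps2, Rpl18 and Rpl37a they began at 41, 2 and 25. Windows were kept only for members with a run, so their presence in both sets was fixed in advance.

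Other genes of translation did not pass the adjusted threshold in limma. Of 25 further genes with 5′ TOP mRNAs, 10 were above 0 and 15 below, with a median of -0.01, and only Gas5, a host of small nucleolar RNAs, reached an unadjusted p of 0.05. Of all genes, 3.46% were higher and 3.42% lower at that p by limma. The scaled TPM of Gas5 averaged 223 ± 70.2 in OVX and 140.5 ± 24.03 in sham (SD, n = 3 each). Of 43 tested initiation factors 18 were above 0 and 25 below, with a median of -0.04 and none at an unadjusted p of 0.05, and Eif1, the most abundant, had 1661, 1802 and 3114 scaled TPM in OVX and 1665, 1750 and 1525 in sham. Again OVX 3 alone was high.

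Of 8 tested elongation factors 7 were below 0, with a median of -0.11. Eef1a1, which brings aminoacyl-tRNA to the ribosome, had 656, 681 and 594 scaled TPM in OVX and 723, 653 and 728 in sham. The groups overlapped. Without OVX 3 the medians were -0.07 for the further 5′ TOP genes, -0.04 for initiation factors and -0.08 for elongation factors.

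Of 63 tested ribosome assembly genes 22 were above 0 and 41 below, with a median of -0.11. An unadjusted p of 0.05 by limma was reached by 1 above 0 and 2 below, beside 3.46% and 3.42% of all genes. Without OVX 3 the median was -0.07. The smallest p was that of Dkc1, the pseudouridine synthase of rRNA, at 30.3, 23.7 and 19.0 scaled TPM in OVX and 42.3, 40.1 and 34.6 in sham, without overlap (limma, adjusted p = 0.574). Of 24 tested genes of growth control of translation 14 were above 0 and 10 below, with a median of 0.07. An unadjusted p of 0.05 by limma was reached by 2 above 0 and 0 below, beside 3.46% and 3.42% of all genes. Without OVX 3, 14 were above 0, with a median of 0.08. In this list Eif2ak4, the amino acid sensor GCN2, had 2.19, 3.04 and 3.16 scaled TPM in OVX and 1.58, 1.62 and 1.21 in sham (limma, adjusted p = 0.663). These values lie near the mean of 1 needed for testing. Of 17 tested ribosome quality control genes 6 were above 0 and 11 below, and of 16 tested genes of the p53 and Mdm2 axis 9 were above 0 and 7 below. Without OVX 3, 9 of the 17 and 9 of the 16 were above 0. In the last list Gadd45a had 221, 204 and 202 scaled TPM in OVX and 143, 146 and 144 in sham, without overlap, with an adjusted p of 0.442 by limma.

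The 79 mitochondrial ribosomal protein genes, which serve translation inside mitochondria, had 41 above 0 and 38 below and a median of 0.03, and 28 above 0 with a median of -0.07 without OVX 3. An unadjusted p of 0.05 was reached by 4, all below 0, beside 3.42% of all genes, with Mrps25 first: its scaled TPM averaged 23.5 ± 2.36 in OVX and 33.6 ± 3.62 in sham (limma, adjusted p = 0.663). Of the 41 listed pseudogenes named -ps, 26 were above 0 and 15 below, with a median of 0.07, and an unadjusted p of 0.05 was reached by 3 above 0 and 2 below, beside 3.46% and 3.42% of all genes. Without OVX 3, 14 of the 41 were above 0, with a median of -0.14.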

How the data were processed

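Bulk RNA-seq libraries of Omacs (3 OVX, 3 sham, grouped by their titles) were compared. The authors deposited TPM per transcript. The submitters' notes name HISAT2 2.0.5 and featureCounts 1.5.0-p3, and the methods name fastp and mm10; the sources used here do not give how TPM per transcript were made. Comparison columns of the authors' own (a mean level, fold change and adjusted p) were not used. TPM were summed per gene over listed transcripts (all annotated transcripts for 23 members), scaled by unweighted TMM (trimming 30% of M values and 5% of A values per end), and tested as log2(scaled TPM + 1) by limma 3.58.1 with trend in R 4.3.3, for genes with a mean of at least 1, with Benjamini-Hochberg adjustment over all genes. The log2 scale understates changes of low genes. With 3 libraries per group, permuting labels exactly gives no p under 0.1, and was not used. Named are members with the smallest p (8 per direction), the 5 highest and lowest, fixed groups, and leading genes of pathway lists, fewer than the rule allowed, and results for some genes are not reported here. Members and lists were chosen with earlier results of these data known. Copies were found with BLASTN 2.17.0+. Tested on simulated data for this comparison (8018 genes), the fit called 61% of 2-fold and 92% of 4-fold changes, with 12 unchanged genes called, for genes simulated independently and with no library apart. Alternatives were other scalings, pseudocounts, filters, variance models, a replicate block and leaving out libraries.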

Additional observations from a re-analysis of the deposited data

How the results depend on the processing

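Under all 22 alternatives 0 members passed the adjusted threshold in either direction by limma. The lowest adjusted p of any member by limma ranged between 0.245 and 0.976. At an unadjusted p of 0.05, 0 to 1 members were higher and 0 to 2 lower, with the following exception. Without OVX 3, deposited TPM gave 15 members lower, beside 567 of all 8270 genes, and equal listed totals 16, beside 619 of all 8268 genes. The count of all genes called higher, 1 in the main comparison, was 0 with a pseudocount of 0.1, with the most abundant transcript alone, with a replicate block and with near-identical copies added to the member, and 20 with library weights, which gave OVX 3 the lowest weight; genes called lower, 0 in the main comparison, were then 7. Leaving out 1 library gave 0 to 7 genes higher and 0 to 3 lower, a member median of -0.03 to 0.15 and a sum ratio of 0.965 to 1.15. Without OVX 3, deposited TPM gave 8 genes higher and 6 lower and equal listed totals 8 and 5; scaling to the median member gave 1 lower. These 3 settings and the added copies were chosen after seeing the data. The causes of these moves were not tested.

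Fold changes of named members turned round as follows. With deposited TPM Rpl11 was at -0.15 and Rps4l at -0.11, with equal listed totals -0.06 and -0.02, and with scaling to the median member -0.06 and -0.02. With library weights Rps27l was at -0.09, Rpl5 at -0.01, Rpl11 at -0.02 and Rpl22l1 at -0.13. Leaving out 1 library gave -0.01 to 0.41 for Rps25, -0.25 to 0.02 for Rpsa, -0.14 to 0.39 for Rps27l, -0.03 to 0.34 for Rpl5, -0.08 to 0.07 for Rpl11, -0.03 to 0.72 for Rpl22l1 and -0.18 to 0.43 for Rps4l. With deposited TPM and no OVX 3, 11 of the 20 turned: Rpl37 -0.01, Rps27 -0.01, Rpl35 -0.07, Rps20 -0.03, Rps25 -0.09, Rpl22 -0.07, Rps23 -0.07, Rps27l -0.22, Rpl5 -0.11, Rpl11 -0.09 and Rpl22l1 -0.11. With equal listed totals and no OVX 3 the same genes were at -0.02, -0.02, -0.08, -0.04, -0.10, -0.08, -0.09, -0.23, -0.12, -0.10 and -0.12. Rps2 kept its sign under all 22, between -0.48 and -0.23. Deviations of same-numbered OVX and sham libraries had correlations of -0.06, -0.13 and -0.25, against -0.145 to 0.198 for other pairs. Deviations within a group are tied to each other, so this cannot decide whether equal numbers share a preparation, and the labels do not say. The replicate block gave 0 members called and a fold change of -0.32 for Rps2 with an adjusted p of 0.893 by limma.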
